A study of Mus musculus with 15 samples.

Results

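Wnt signals reach the nucleus when a Wnt ligand binds a Frizzled receptor together with the co-receptor Lrp5 or Lrp6, which stops the destruction of beta-catenin and lets it act with TCF/LEF transcription factors. Many genes switched on in this way code for proteins that damp the pathway again, at the ligand, at the receptor and inside the cell, and their transcripts are widely used as readouts of Wnt activity. In small-intestinal crypts the pathway maintains stem cells, and Notch signalling holds dividing progenitors back from the secretory fate. The genes described here are 10 such feedback and TCF target genes, Rnf43, Znrf3, Notum, Wif1, Apcdd1, Axin2, Nkd1, Lef1, Tcf7 and Sp5. They were found as every array probe whose accession maps to one of these symbols, which gave 13 probes among 39429, for 10 of the 20144 genes with a symbol on the array. Axin2, Nkd1 and Tcf7 had 2 probes each, called probe 1 for the brighter and probe 2 for the dimmer in crypt RNA, and the other genes had 1.

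Crypts came from the small intestines of mice 6 to 8 weeks old, 24 h after antibody treatment. The N1N2 + Lrp6 group had received blocking antibodies to Notch1 and Notch2 together with 30 mg/kg of an antibody to Lrp6. The N1N2 group had received the antibodies to Notch1 and Notch2 alone, and the control group an IgG control antibody. The labels give the Notch antibodies as 1 mg/mL, a concentration, so their amount per animal is not known here. Each group had 5 arrays. The sources used here give neither the mouse strain nor whether an array holds 1 animal or a pool, so p-values measure the spread between these 15 samples. The antibodies act on the whole animal, and crypts were shaken out of the tissue without sorting. No group treated with the Lrp6 antibody alone was analysed here. Crypt RNA was labelled in red and a universal mouse reference RNA in green on every array, and each value below is the log2 ratio of crypt over reference after background correction and normalization. Such a ratio can be compared between groups for 1 probe, not between probes.

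All 12 measured markers of crypt epithelium were well above background on every array. The crypt preparations also held RNA of T and intraepithelial lymphocytes, whose 16 tested markers included Cd3e and Cd8a well above background on all 15 arrays, and of stromal, muscle and endothelial cells, whose 16 markers included Col1a2 and Acta2 on all 15. The arrays lay on 6 slides. Control arrays 4 and 5 shared a slide with N1N2 arrays 1 and 2; N1N2 + Lrp6 arrays 1 to 4 filled a slide of their own and array 5 another, so slide and antibody cannot be told apart in either comparison of the N1N2 + Lrp6 group. The share of probes well above background in red averaged 64.8% ± 6.01 in N1N2 + Lrp6 arrays, 73.9% ± 3.05 in N1N2 arrays and 75.8% ± 4.19 in control arrays (SD, n = 5 each). Correlations between arrays of 1 group ranged from 0.914 to 0.993 over probes.

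Probes entered the test if some group had 4 or more of its 5 arrays well above background in the red channel. This held for 10 of the 13 probes, standing for 8 of the 10 genes; Wif1, Apcdd1 and Nkd1 probe 2 did not pass. Rnf43, Notum, Sp5, Axin2 probe 1, Nkd1 probe 1 and Tcf7 probe 1 were well above background on all 15 arrays, Znrf3 on 14, Tcf7 probe 2 on 12, Lef1 on 11 and Axin2 probe 2 on 10. Axin2 probe 2 was not well above background on any of the 5 N1N2 + Lrp6 arrays, and was on all 5 in N1N2 and all 5 in control crypts. Background correction used an offset of 50 scanner units, which draws the ratios of dim probes towards the reference. The median red signal above local background was 67 units for Lef1, 76 for Tcf7 probe 2, 78.5 for Znrf3 and 52 for Axin2 probe 2, so small changes of these probes had little room to show.

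**Figure D1:**
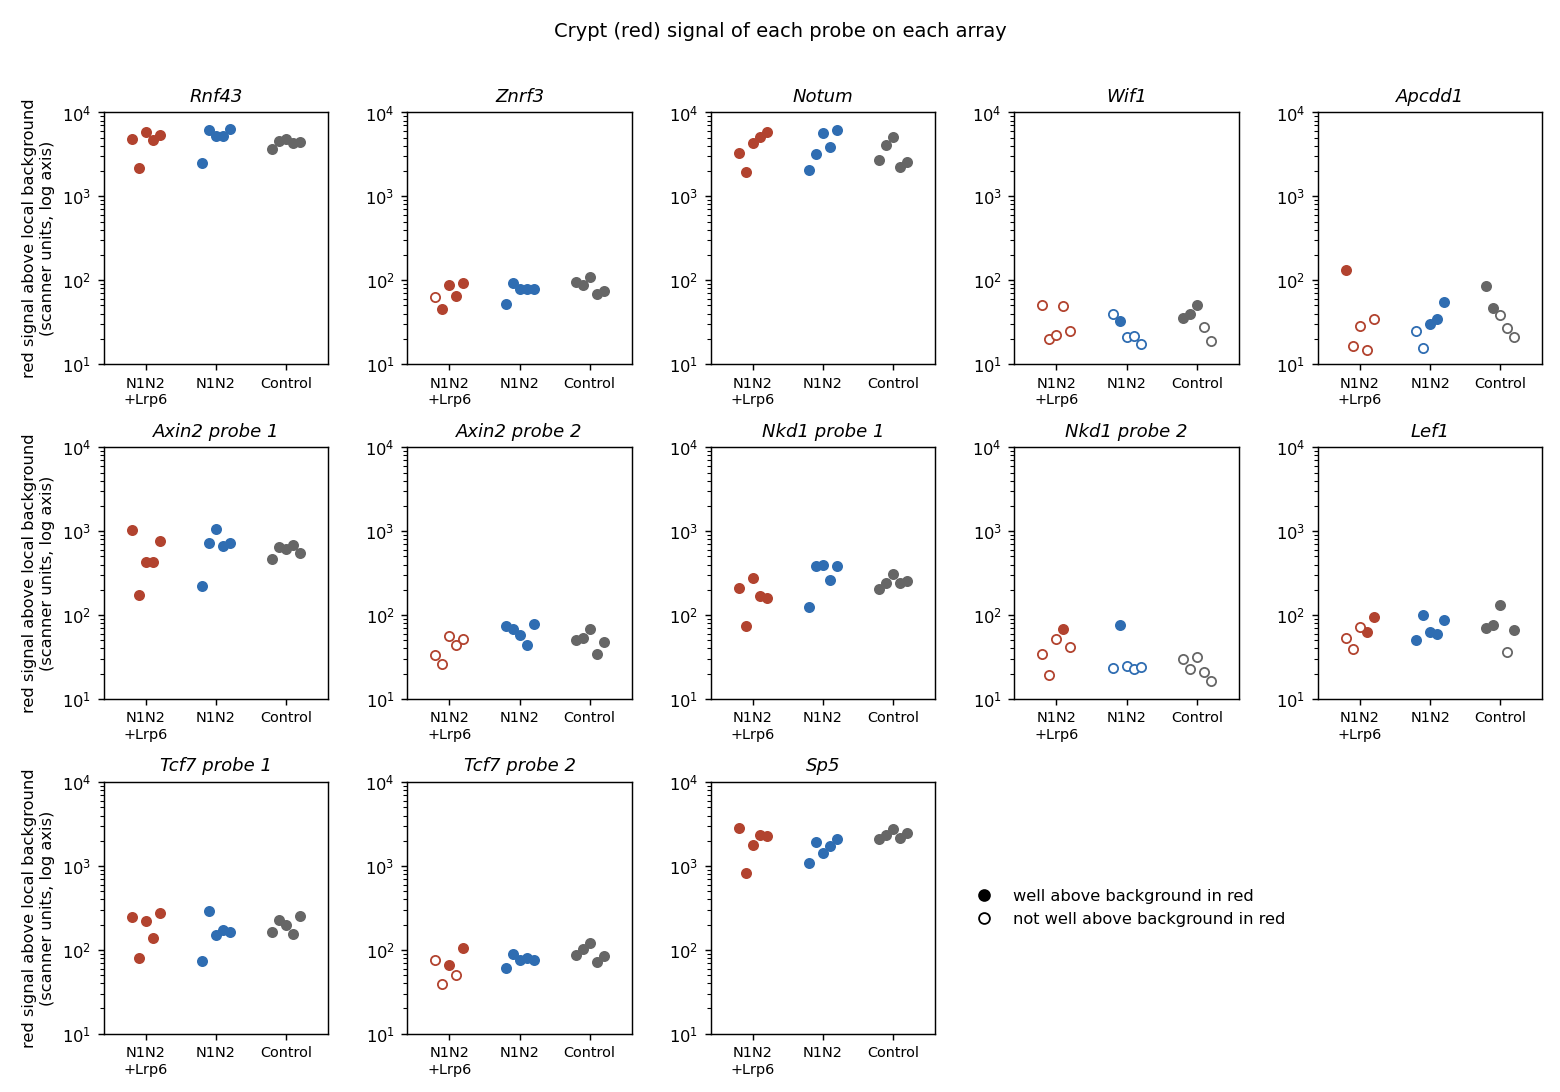
Red (crypt) signal above local background in scanner units on a log axis, for the 13 probes on each array, with N1N2 + Lrp6 left, N1N2 in the middle and control right; each point is 1 array and open points were not well above background. Wif1, Apcdd1 and Nkd1 probe 2 have open points in every group, and Axin2 probe 2 has 5 open points in the N1N2 + Lrp6 group and none in the others.

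RefSeq promoter windows (250 bases before to 50 after a transcript start, GRCm38.p6) were at hand for 7 of the 10 genes, in 12 windows. They were searched on both strands for the TCF/LEF core motifs CTTTGAA and CTTTGAT, which differ in the last letter. Of the 12 windows, 1 held a motif, that of Sp5, with CTTTGAT on the plus strand at base 147 of the window. Over all 32851 windows of this length, 8.65% held either motif. The window of Nkd1, shown because Nkd1 is 1 of the 2 genes whose level differed between groups below, lies at chr8:88527383-88527682 on the plus strand, spans the annotated start and held neither motif; it is written in lower case because there was nothing to mark.
Nkd1: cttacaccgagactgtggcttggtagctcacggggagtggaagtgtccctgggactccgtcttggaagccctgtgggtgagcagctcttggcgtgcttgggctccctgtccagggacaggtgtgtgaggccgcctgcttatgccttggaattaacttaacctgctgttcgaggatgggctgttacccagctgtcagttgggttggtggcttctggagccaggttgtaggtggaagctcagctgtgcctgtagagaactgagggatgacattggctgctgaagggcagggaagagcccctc

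Between groups, 2 of the genes changed. Notum was 1.52-fold higher in N1N2 than in control crypts, and Nkd1, by probe 1, was lower in N1N2 + Lrp6 than in N1N2 crypts at 0.656 of its level. Axin2, the feedback gene most often read as a measure of Wnt activity, passed the test in none of the 3 comparisons by either probe, and neither did Rnf43, Znrf3, Lef1, Tcf7 or Sp5. In N1N2 against control crypts, 1 of the 10 tested probes was called (Notum, higher), and 11.4% of all 28488 probes were called, 6.2% higher and 5.23% lower. Adding the Lrp6 antibody, N1N2 + Lrp6 against N1N2 crypts, 1 of 10 was called (Nkd1 probe 1, lower), and 16.5% of all probes were, 9.67% higher and 6.87% lower. For N1N2 + Lrp6 against control crypts limma called 0 of 10, and 0.358% of all probes, 0.197% higher and 0.161% lower. At an unadjusted p under 0.05 stood 2 of the 10 (Notum and Rnf43) in N1N2 against control crypts, 1 (Nkd1 probe 1) in N1N2 + Lrp6 against N1N2 and 1 (Notum) in N1N2 + Lrp6 against control, beside 26.4%, 29.1% and 12.8% of all probes. The groups of 1 probe (Notum) did not overlap in the first comparison and of 0 in the others, beside 12.2%, 9.99% and 2.62% of all probes. A call means a limma p of under 0.05 after Benjamini-Hochberg adjustment across the tested probes. Counts of 1 in 10 stand near the background in the first 2 comparisons. The median log2 change of the 10 probes was -0.007 for N1N2 against control crypts, -0.027 for N1N2 + Lrp6 against N1N2 and -0.012 for N1N2 + Lrp6 against control, beside -0.0066, 0.0039 and 0.0099 over all tested probes. The 3 comparisons share arrays and are not independent.

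**Figure D2:**
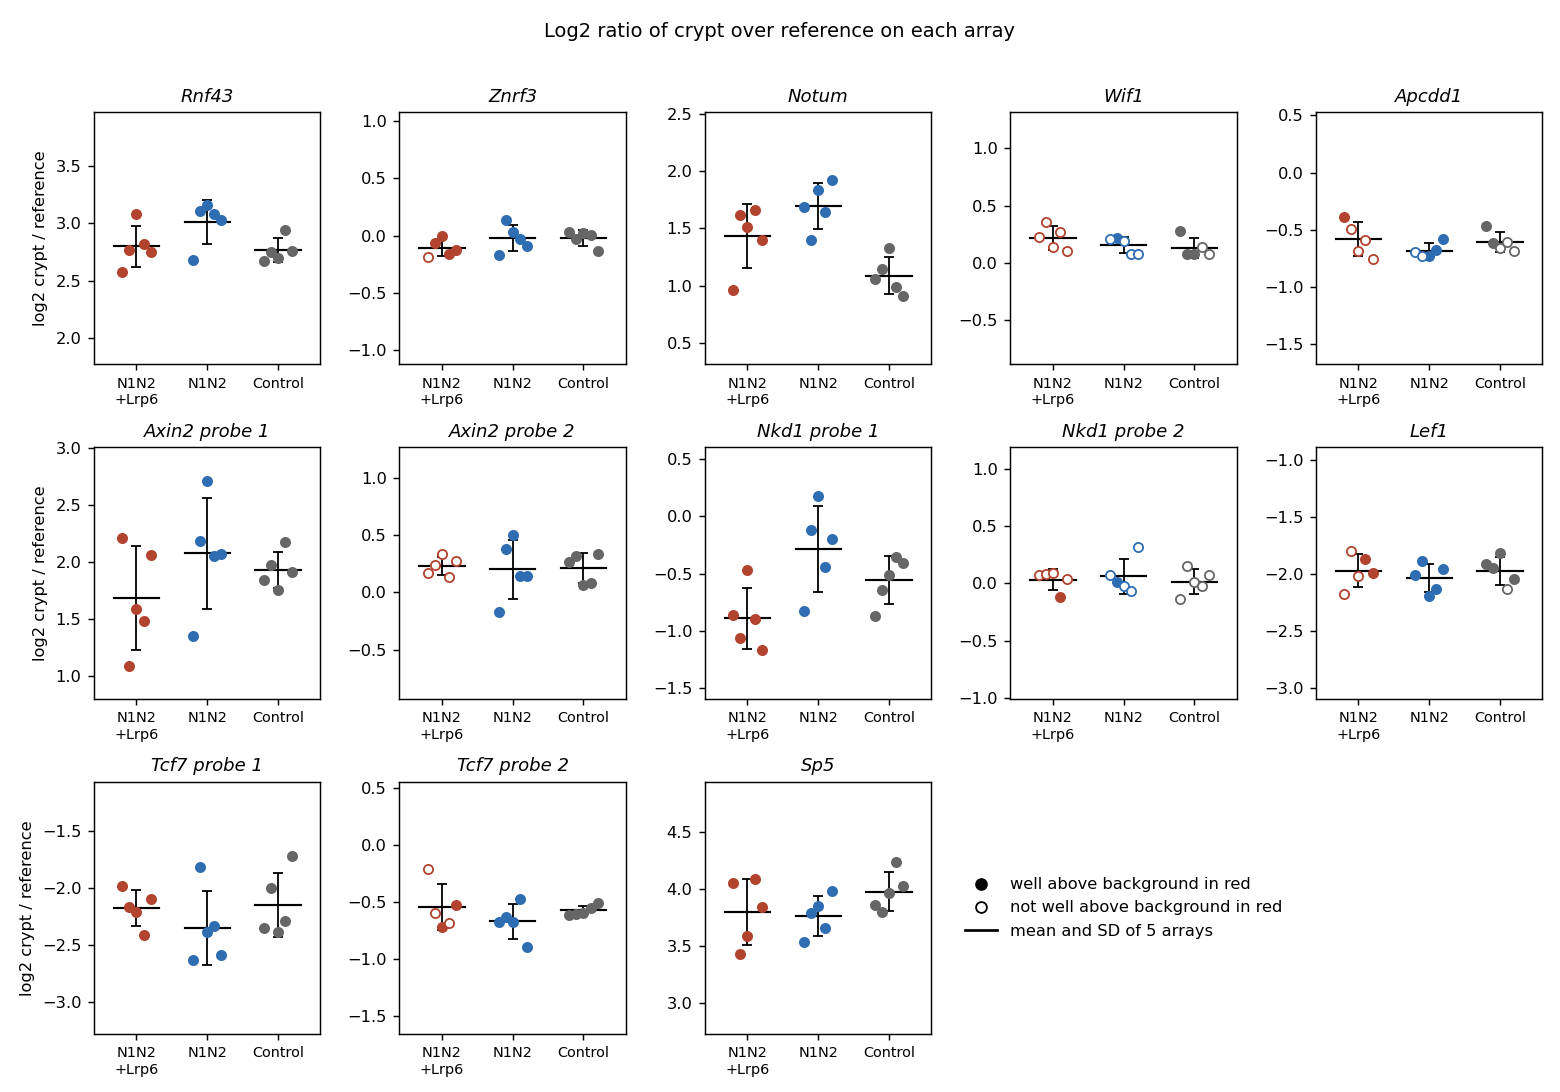
Log2 ratio of crypt over reference for the 13 probes on each array, with N1N2 + Lrp6 left, N1N2 in the middle and control right; points are arrays (open where not well above background in red), lines and bars the mean and SD of 5 arrays, and every panel spans the same height. Notum is the 1 tested probe whose N1N2 arrays all lie above the control arrays, and the Nkd1 probe 1 arrays of the N1N2 + Lrp6 group lie low, with N1N2 array 1 among them.

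Of the genes that act on the receptor and the ligand, Notum codes for a secreted enzyme that removes the lipid from Wnt proteins and so inactivates them. Its log2 ratios were 1.69, 1.40, 1.83, 1.64 and 1.92 on N1N2 arrays 1 to 5, against 1.06, 1.15, 1.33, 0.99 and 0.91 on control arrays 1 to 5. Every N1N2 array lay above every control array, by a small margin at the closest. The log2 change was 0.61 (SE 0.13, 95% interval 0.33 to 0.89, adjusted p = 0.00841 by limma). In bulk crypt RNA more cells of a type and more RNA per cell cannot be told apart.

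The N1N2 + Lrp6 arrays had Notum ratios of 0.96, 1.62, 1.51, 1.66 and 1.40. Array 1 fell within the control range and the other 4 above it, while the range also overlapped that of N1N2 crypts. The change was -0.26 (SE 0.13, interval -0.54 to 0.015, adjusted p = 0.198) from N1N2 crypts and 0.34 (SE 0.13, interval 0.065 to 0.62, adjusted p = 0.299, unadjusted p = 0.019) from control crypts. The order of the means was thus N1N2 (1.69 ± 0.20), N1N2 + Lrp6 (1.43 ± 0.28) and control (1.09 ± 0.16; SD, n = 5 each), and neither pair of neighbours in it differed by the test. The call in N1N2 against control crypts rests on the ratio and its normalization: raw red signals overlapped, at 2040 to 6108 units in N1N2 and 2218 to 5048 in control crypts, and the red channel alone gave 0.46 (adjusted p = 0.173), median centring in place of loess 0.42 (adjusted p = 0.0931) and arrays scaled to each other 0.37 (adjusted p = 0.179). Within the slide that both groups shared, 2 arrays each, the change was 0.59, and with slide as a fixed block its adjusted p was 0.297.

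Rnf43 codes for a membrane ubiquitin ligase that takes Frizzled receptors off the cell surface. Its log2 ratios were 2.68, 3.11, 3.16, 3.08 and 3.03 on N1N2 arrays, against 2.68, 2.75, 2.70, 2.94 and 2.76 on control arrays. N1N2 array 1 lay among the control arrays and the other 4 above them all. The change of 0.25 (SE 0.10, interval 0.031 to 0.47) did not pass the test (adjusted p = 0.132, unadjusted p = 0.0278). Without N1N2 array 1 it was 0.33 and passed (adjusted p = 0.0333). Within the slide that N1N2 array 1 shared with control arrays the change was 0.048. With arrays scaled to each other it was -0.36 (adjusted p = 0.668 by limma). Of 25 alternatives, 3 gained a call for Rnf43 in this comparison and 1 changed its sign.

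The Rnf43 ratios of N1N2 + Lrp6 crypts were 2.58, 2.77, 3.08, 2.82 and 2.75, which overlapped both other groups. The change from N1N2 crypts was -0.22 (SE 0.10, adjusted p = 0.177), and -0.30 without N1N2 array 1 (adjusted p = 0.0385). The change from control crypts was 0.033 (interval -0.19 to 0.25, adjusted p = 0.922). N1N2 array 1 was the lowest of its group in 7 of the 10 tested probes, Axin2, Nkd1 and Rnf43 among them, and no other array was the lowest of its group in more than 4.

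Znrf3, the paralog of Rnf43 with the same activity, averaged -0.11 ± 0.074 in N1N2 + Lrp6, -0.022 ± 0.12 in N1N2 and -0.021 ± 0.066 in control crypts (SD, n = 5 each). The 3 groups overlapped. The change in N1N2 against control crypts was -0.0007 with an interval of -0.15 to 0.15, and that in N1N2 + Lrp6 against N1N2 crypts -0.085 with an interval of -0.23 to 0.061, on a probe whose ratios the offset compresses.

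Wif1, a secreted protein that binds Wnt ligands, and Apcdd1, a membrane protein that inhibits the pathway by binding Wnt and its co-receptor, were too dim to test. Wif1 was well above background on 0 of 5 N1N2 + Lrp6, 1 of 5 N1N2 and 3 of 5 control arrays, with red signals of 17.5 to 51 units above local background over the 15 arrays. Apcdd1 was well above background on 1, 3 and 2 arrays of the same groups, with signals of 14.5 to 132 units, the highest on N1N2 + Lrp6 array 1. Neither gene has a measured direction here.

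Inside the cell, Axin2 codes for a scaffold of the complex that destroys beta-catenin. The log2 ratios of probe 1 were 2.21, 1.09, 1.59, 1.48 and 2.06 on N1N2 + Lrp6 arrays, against 1.35, 2.19, 2.71, 2.05 and 2.07 on N1N2 arrays and 1.84, 1.97, 1.76, 2.17 and 1.91 on control arrays. Both antibody groups spread more widely than the control group, whose range lay inside each of theirs. The SDs were 0.45 in N1N2 + Lrp6, 0.48 in N1N2 and 0.16 in control crypts; the SD within groups was 0.39, beside a median of 0.17 over all tested probes.

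For Axin2 probe 1 the change was -0.39 in N1N2 + Lrp6 against N1N2 crypts (SE 0.22, interval -0.86 to 0.087, adjusted p = 0.278). It was 0.14 in N1N2 against control crypts (interval -0.33 to 0.62, adjusted p = 0.741) and -0.25 in N1N2 + Lrp6 against control crypts (interval -0.72 to 0.23, adjusted p = 0.679). Each of these intervals holds a change of the size seen for Notum, so Axin2 is not shown to have stayed the same. Within the shared slide the N1N2 against control difference had the other sign, -0.27 over 2 arrays each.

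The ratio of Axin2 probe 2 gave changes near 0 between groups, although both probes put the 5 N1N2 arrays in the same order. Its ratios were 0.17, 0.24, 0.34, 0.14 and 0.28 on N1N2 + Lrp6 arrays, against -0.17, 0.38, 0.51, 0.14 and 0.15 on N1N2 arrays and 0.26, 0.32, 0.069, 0.081 and 0.34 on control arrays. The changes were 0.031 in N1N2 + Lrp6 against N1N2 crypts (interval -0.20 to 0.26), -0.013 in N1N2 against control and 0.017 in N1N2 + Lrp6 against control, none of them called. The green channel of this probe was well above background on 4 of 15 arrays, so both channels of its ratio lay near background. By red signal alone it was lower in N1N2 + Lrp6 than in N1N2 crypts (-0.36), the sign opposite to that of its ratio. By the floor of probes well above background, N1N2 crypts had at least 1.17-fold more red signal than N1N2 + Lrp6 crypts. The same bound for control crypts was 0.999-fold, so it set no minimum difference. Raw red signals overlapped, at 26 to 56 units in N1N2 + Lrp6, 44 to 77.5 in N1N2 and 34 to 67.5 in control crypts. The filter had admitted this probe by its red signal in N1N2 and control crypts alone. Its red values therefore give no independent support for a lower level in N1N2 + Lrp6 crypts. Red signal alone gave -0.32 for probe 1 (adjusted p = 0.489).

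Nkd1 codes for a protein that binds Dishevelled and dampens the Wnt signal. Probe 1 had log2 ratios of -0.86, -1.06, -0.47, -0.89 and -1.17 on N1N2 + Lrp6 arrays, against -0.83, -0.12, 0.18, -0.44 and -0.20 on N1N2 arrays. The groups overlapped, because N1N2 array 1 lay among the N1N2 + Lrp6 arrays; the other 4 N1N2 arrays lay above all of these. The change was -0.61 (SE 0.17, interval -0.97 to -0.25, adjusted p = 0.0221 by limma).

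Control arrays had Nkd1 probe 1 ratios of -0.87, -0.64, -0.52, -0.36 and -0.40, between the means of both other groups. The change from control was 0.27 in N1N2 crypts (SE 0.17, adjusted p = 0.327) and -0.33 in N1N2 + Lrp6 crypts (SE 0.17, adjusted p = 0.428). In the order N1N2 (-0.28 ± 0.38), control (-0.56 ± 0.21) and N1N2 + Lrp6 (-0.89 ± 0.27; SD, n = 5 each), the ends differed by the test and the neighbours did not. The red signal above background ran in the same direction, at 74 to 277 units with a median of 170.5 in N1N2 + Lrp6, 125 to 393 with a median of 385.5 in N1N2, and 204.5 to 307.5 with a median of 244 in control crypts.

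The Nkd1 call did not hold without N1N2 array 2 (adjusted p = 0.0583), N1N2 array 3 (adjusted p = 0.0555) or N1N2 + Lrp6 array 5 (adjusted p = 0.0511), where the change was -0.57, -0.49 and -0.54. It also missed the threshold with arrays scaled to each other (-0.59, adjusted p = 0.0607). N1N2 + Lrp6 array 5, the array on the other slide, differed from the N1N2 arrays by -0.88 when it stood alone for its group (SE 0.29, taken from the spread of the other groups), a change in the same direction and larger; with 1 array in a group the adjusted p of 0.155 says little. The red channel alone gave -0.64 (adjusted p = 0.0308). Nkd1 probe 2 was well above background on 1 N1N2 + Lrp6, 1 N1N2 and 0 control arrays and has no tested change, so probe 1 is the sole measure of the gene.

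**Figure D3:**
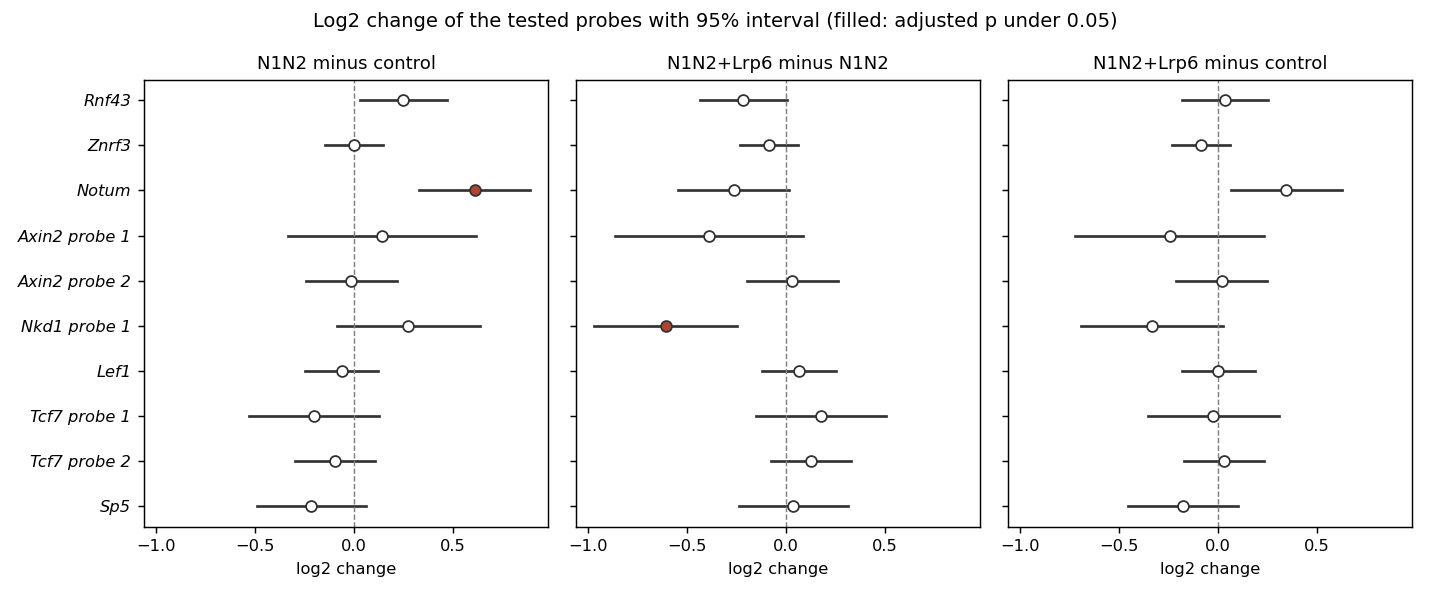
Log2 change with its 95% interval for the 10 tested probes in the 3 comparisons; filled points have an adjusted p under 0.05 and the dashed line marks no change. Notum in N1N2 minus control (0.61) and Nkd1 probe 1 in N1N2 + Lrp6 minus N1N2 (-0.61) are filled, and Axin2 probe 1 has the widest interval of the 10 in each panel.

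The transcription factors showed no called change. Lef1 and Tcf7 code for factors that carry beta-catenin to TCF sites, and both are also known from T cells. Lef1 averaged -1.97 ± 0.15 in N1N2 + Lrp6, -2.03 ± 0.12 in N1N2 and -1.97 ± 0.12 in control crypts (SD, n = 5 each). Its change in N1N2 against control crypts was -0.063 (interval -0.25 to 0.12), and that in N1N2 + Lrp6 against N1N2 crypts 0.064 (interval -0.12 to 0.25).

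Tcf7 probe 1 averaged -2.18 ± 0.16 in N1N2 + Lrp6, -2.35 ± 0.32 in N1N2 and -2.15 ± 0.28 in control crypts. Its change was -0.20 in N1N2 against control crypts (interval -0.53 to 0.13, adjusted p = 0.446) and 0.18 in N1N2 + Lrp6 against N1N2 crypts (interval -0.15 to 0.50, adjusted p = 0.516). The highest Tcf7 probe 1 value of the N1N2 group was -1.82 on array 2 and that of the control group -1.73 on array 5, the arrays with the highest mean of the 16 T-cell markers in their groups (2.15 and 2.35). In the N1N2 + Lrp6 group it was the other way, with the lowest Tcf7 probe 1 value (-2.42) on array 4, which had the highest T-cell marker mean (1.92). That mean was 1.73 ± 0.17 in N1N2 + Lrp6, 1.66 ± 0.37 in N1N2 and 2.05 ± 0.22 in control crypts, and its part in the Tcf7 and Lef1 values was not tested. Of these 16 markers, 2 (Cd3e and Gzma) fell in N1N2 against control crypts, beside 5.23% of all probes. None of them was called in the other comparisons. Tcf7 probe 2 averaged -0.55 ± 0.20, -0.67 ± 0.15 and -0.57 ± 0.041 in N1N2 + Lrp6, N1N2 and control crypts, and its changes had the same sign as those of probe 1 in both comparisons with N1N2 crypts, at -0.096 against control and 0.12 for N1N2 + Lrp6 against N1N2, neither called.

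Sp5 codes for a zinc finger factor that is a direct target of beta-catenin and curbs other targets. Its ratios were 4.05, 3.43, 3.59, 4.09 and 3.85 on N1N2 + Lrp6 arrays, against 3.53, 3.79, 3.85, 3.66 and 3.98 on N1N2 arrays and 3.86, 3.80, 3.97, 4.24 and 4.03 on control arrays. The groups overlapped, with the N1N2 + Lrp6 arrays the most spread. Sp5 changed by -0.22 in N1N2 against control crypts (interval -0.49 to 0.061, adjusted p = 0.318), by 0.037 in N1N2 + Lrp6 against N1N2 (interval -0.24 to 0.31) and by -0.18 in N1N2 + Lrp6 against control (interval -0.45 to 0.098). Its green channel was well above background on 6 of 15 arrays, at 14 to 40 units. The sign of its change turned under 2 of 25 alternatives in N1N2 against control crypts. It turned under 1 of 24 in N1N2 + Lrp6 against control and 5 of 24 in N1N2 + Lrp6 against N1N2. By red signal alone the changes were -0.36 (adjusted p = 0.06 by limma), -0.28 (adjusted p = 0.319) and 0.081 (adjusted p = 0.724) in the same order. With scanner-flagged spots kept in the normexp fit the change was 0.51 in N1N2 and 0.76 in N1N2 + Lrp6 against control, and with the scanner's own log ratio 0.10 in N1N2 against control and -0.42 in N1N2 + Lrp6 against N1N2, none of them called.

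Notum, Wif1 and Apcdd1 are also known from mesenchyme in other tissues. The mean log2 ratio over the 16 markers of stromal, muscle and endothelial cells was -3.13 ± 0.23 in N1N2 + Lrp6, -2.79 ± 0.12 in N1N2 and -2.47 ± 0.27 in control crypts (SD, n = 5 each), with 9 to 15, 12 to 16 and 14 to 16 of the 16 well above background on an array of these groups, and Pdgfra on 0 of the 5 N1N2 + Lrp6 arrays. In N1N2 against control crypts 2 of the 16 were called lower (Dcn and Lum) and 0 higher, beside 5.23% and 6.2% of all probes. The change was positive in 3 of the 16. The part of stromal RNA in the Notum value was not tested. With the Lrp6 antibody, N1N2 + Lrp6 against N1N2 crypts, 5 of the 16 fell, Col1a1, Col1a2, Acta2, Myh11 and Pecam1, beside 6.87% of all probes. Nkd1 fell in this comparison too, and the part of stromal RNA in the Nkd1 value was not tested. In N1N2 + Lrp6 against control crypts 2 of the 16 were lower (Col1a1 and Col3a1), beside 0.161% of all probes. There the change was positive in 1 of the 16. Of the secretory progenitor and goblet cell markers, 8 of 10 were higher in N1N2 against control crypts, beside 6.2% of all probes. In N1N2 + Lrp6 against N1N2 crypts 6 of 10 were lower, beside 6.87%. In N1N2 + Lrp6 against control crypts 4 of 10 were higher, beside 0.197% of all probes, and the change was positive in all 10. The part of these markers' cells in the Notum and Nkd1 values was not tested. None of 5 Paneth cell markers was called in any of the 3 comparisons. Of all probes, 11.4% were called in N1N2 against control crypts, 16.5% in N1N2 + Lrp6 against N1N2 and 0.358% in N1N2 + Lrp6 against control.

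Elsewhere in the Wnt pathway, each gene given by its brightest probe, 59 of 72 listed symbols were tested. Troy, among the 72, is a synonym of Tnfrsf19. In N1N2 against control crypts 4 were called higher and 4 lower, 13.6% of the 59 beside 11.4% of all probes, with a median log2 change of 0.034. In N1N2 + Lrp6 against N1N2 crypts 3 were higher and 4 lower (11.9% beside 16.5%, median -0.097), and in N1N2 + Lrp6 against control crypts 0 were higher and 1 lower (1.69% beside 0.358%, median -0.040). Thus 8, 7 and 1 of the 59 genes were called, shares near or below the background in both comparisons with N1N2 crypts; the third rests on Lgr5 alone. On the ligand and receptor side 25 genes were tested. Wnt3, a ligand made in crypts by Paneth cells, averaged 3.15 in N1N2 crypts, against 1.25 in control crypts, a change of 1.90 (SE 0.25, adjusted p = 0.000176), and 1.94 in N1N2 + Lrp6 crypts, a change of -1.21 from N1N2 (SE 0.25, adjusted p = 0.00478). With slide as a fixed block the first was 1.40 (adjusted p = 0.169); the second missed the threshold with scanner-flagged spots in the normexp fit (-0.99, adjusted p = 0.0785) and with scaled arrays (-1.15, adjusted p = 0.109). Rspo1, a secreted enhancer of Wnt signals, was lower in N1N2 than in control crypts (-1.29, SE 0.33, adjusted p = 0.0199; -1.11 and adjusted p = 0.0615 without control array 2), a call also lost with flagged spots in the fit (-0.75, adjusted p = 0.234), scaled arrays (-1.71, adjusted p = 0.078) or slide as a fixed block (-1.53, adjusted p = 0.315). The receptor Fzd1 was lower too (-0.39, adjusted p = 0.0299), but turned to 0.033 with scaled arrays, and its call was lost on leaving out any 1 of 7 of the 10 arrays, control 2, 3, 4 or 5 or N1N2 2, 4 or 5 (adjusted p up to 0.0829).

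Lgr5, the R-spondin receptor that marks crypt stem cells, averaged 1.43 in N1N2 + Lrp6, 2.09 in N1N2 and 2.64 in control crypts. It was lower in N1N2 + Lrp6 than in control crypts (-1.21, SE 0.24, adjusted p = 0.0447). That call was lost on leaving out any 1 of 8 of the 10 arrays, all but control 1 and N1N2 + Lrp6 5, with adjusted p up to 0.125, and under 16 of 24 alternatives in all; with flagged spots in the normexp fit the change was -0.44 (adjusted p = 0.502). The change of Lgr5 was -0.55 in N1N2 against control crypts (adjusted p = 0.162) and -0.66 in N1N2 + Lrp6 against N1N2 (adjusted p = 0.0776), where it was called without N1N2 array 1 (adjusted p = 0.0147) or N1N2 + Lrp6 array 3 (adjusted p = 0.0417). The transcript of Lrp6, the target of the added antibody, was not called (-0.31 in N1N2 + Lrp6 against N1N2, adjusted p = 0.253), and its second probe gave 0.0048; an antibody that blocks the protein need not alter its RNA, so this does not check the treatment.

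Inside the cell 12 genes were tested. Nkd2, the paralog of Nkd1, was 0.75 higher in N1N2 than in control crypts (SE 0.10, adjusted p = 0.000304) and fell by 0.50 in N1N2 + Lrp6 against N1N2 crypts (SE 0.10, adjusted p = 0.00516), the comparison in which Nkd1 fell. The first Nkd2 call was lost with median centring (0.58, adjusted p = 0.0799), scaled arrays (0.48, adjusted p = 0.273) and slide as a fixed block (0.85, adjusted p = 0.0574), the second with median centring (-0.34, adjusted p = 0.261), scaled arrays (-0.46, adjusted p = 0.305) and red signal alone (-0.43, adjusted p = 0.062). Ctnnb1, which codes for beta-catenin, and Apc, a scaffold of the destruction complex, were called in no comparison, with changes between -0.19 and 0.12. Of 8 genes in the nucleus, the co-repressor Tle2 was higher in N1N2 than in control crypts (0.43, SE 0.093, adjusted p = 0.00882), but not with flagged spots in the normexp fit (0.090, adjusted p = 0.793), median centring (0.31, adjusted p = 0.154), scaled arrays (0.96, adjusted p = 0.112) or slide as a fixed block (0.25, adjusted p = 0.526). Lower in N1N2 + Lrp6 than in N1N2 crypts were the co-repressor Tle3 (-0.57, adjusted p = 0.0413) and Pygo2, a co-activator of beta-catenin (-0.34, adjusted p = 0.02); the Tle3 call was lost on leaving out any 1 of 8 of the 10 arrays, all but N1N2 5 and N1N2 + Lrp6 2 (adjusted p up to 0.105), and that of Pygo2 without N1N2 array 4 (-0.29, adjusted p = 0.0626). With median centring Tle3 was -0.28 (adjusted p = 0.328) and Pygo2 turned to 0.0080 (adjusted p = 0.984); over all 24 alternatives Tle3 lost its call in 13, and Pygo2 lost it in 6 and turned in 1. Tcf7l2, the main TCF of the intestine, was not called by its brightest probe in N1N2 against control crypts (0.93, adjusted p = 0.061), while its 2 other probes passed (0.56, adjusted p = 0.000518, and 0.54, adjusted p = 0.00602). In N1N2 + Lrp6 against N1N2 crypts the first of these 2 was lower (-0.55, adjusted p = 0.00087 by limma). There the second gave -0.24 (adjusted p = 0.164) and the brightest -0.33 (adjusted p = 0.544), neither called.

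Of 14 target genes in crypts, Ascl2, a transcription factor of stem cells, changed in both comparisons that hold N1N2 crypts. It averaged 1.60 in N1N2 crypts, against 3.05 in control crypts, a change of -1.45 (SE 0.24, adjusted p = 0.00142), and 2.92 in N1N2 + Lrp6 crypts, a change of 1.32 from N1N2 (SE 0.24, adjusted p = 0.00263). With scaled arrays both calls were lost (-2.11, adjusted p = 0.0605, and 1.31, adjusted p = 0.224), and with flagged spots in the normexp fit the first (-0.99, adjusted p = 0.075). Sox9, a factor of progenitor and Paneth cells, was 0.94 higher in N1N2 than in control crypts (SE 0.17, adjusted p = 0.00305), and 0.49 within the slide both groups shared (adjusted p = 0.37 with slide as a fixed block). The growth regulators Myc (0.72, SE 0.20, adjusted p = 0.0216) and Ccnd1 (0.64, SE 0.11, adjusted p = 0.00236) were higher in N1N2 + Lrp6 than in N1N2 crypts, Myc not without N1N2 array 1 (0.62, adjusted p = 0.0505) or with the scanner's log ratio (0.74, adjusted p = 0.0506), and neither with scaled arrays (adjusted p = 0.114 and 0.066). Tnfrsf19, a receptor found on stem cells, was lower in N1N2 than in control crypts by its brightest probe (-0.56, adjusted p = 0.0373), a call lost on leaving out any 1 of 8 of the 10 arrays, all but control 4 and N1N2 1 (adjusted p up to 0.093), and under 15 of 25 alternatives in all. The second Tnfrsf19 probe gave -0.041 in the same comparison (adjusted p = 0.735 by limma), so the fall rests on 1 probe. Cd44 was not called there by its brightest probe (-0.17, adjusted p = 0.707), while its second probe was lower (-0.40, adjusted p = 0.0152). When N1N2 + Lrp6 array 5 stood alone for its group, with the spread taken from the other groups, the 7 pathway genes called against N1N2 crypts kept their directions, at -1.48 for Wnt3, -0.74 for Nkd2, -0.45 for Pygo2, -0.51 for Tle3, 0.76 for Ascl2, 0.68 for Myc and 0.51 for Ccnd1. None was called, which with 1 array says little.

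**Figure D4:**
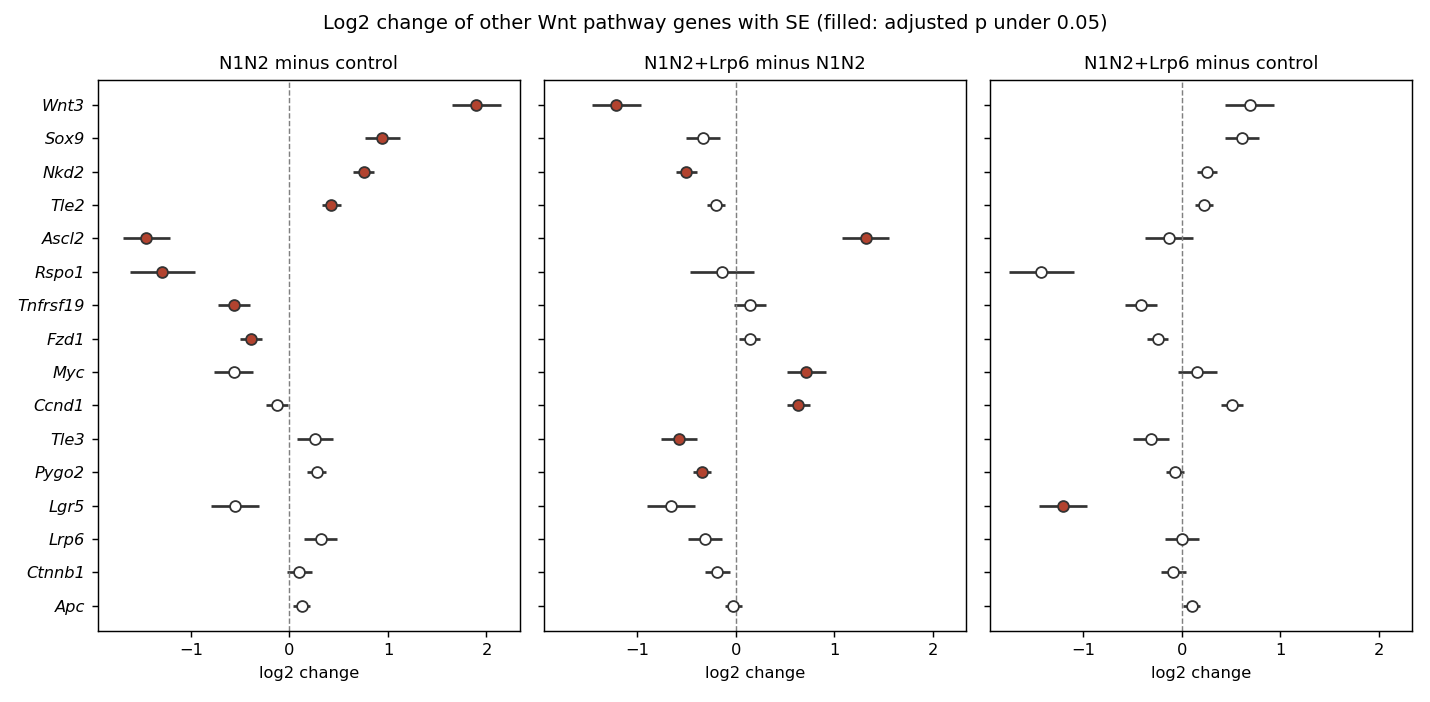
Log2 change with its SE for 16 of the other Wnt pathway genes named in the text, in the 3 comparisons. Filled points have an adjusted p under 0.05. Wnt3 and Nkd2 are higher in N1N2 minus control and lower in N1N2 + Lrp6 minus N1N2, and Ascl2 has the opposite signs.

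The named genes whose ratios ran most like those of Notum over the 15 arrays were Lhfpl4 (r = 0.946), Gmppa (r = 0.927) and Krtap10-10 (r = 0.926), and those most like Nkd1 probe 1 were Cnga3 (r = 0.919), Dagla (r = 0.870) and Slc41a1 (r = 0.866). These are descriptions over arrays that share groups, slides and the reference. The correlations of the same pairs over deviations from group means were 0.796 to 0.935. The pairs were picked for the highest r among all tested probes over these same 15 arrays, so neither set of correlations is an independent check.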

How the data were processed

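The authors deposited scanner files of 15 Agilent arrays with a red and a green channel, read with Feature Extraction 11.0.1.1 on a design of build mm9, per the file headers. These deposited files hold median intensity and median local background per spot and channel, quality flags, and a log10 ratio of red over green that the scanner software had background-subtracted and dye-normalized. A second deposited table holds log2 values, made with R 3.0.0 and limma 3.6.7 per the submitters' processing notes. Each column correlated with the ratios computed here at r of 0.99998 or more, so its scale and direction are log2 of crypt over reference; column medians were 0.0144 to 0.0286, and the sources used here do not state the centring. There was no dye swap, per the labels, so dye bias of a probe stays in its ratio but not in differences between groups.

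Of 44397 spots, 401 to 761 per array carried non-uniformity or population outlier flags in either channel and were left out. The number of arrays limits the precision. Median signals were corrected with normexp (offset 50), ratios normalized by loess within arrays (span 0.3, 4 iterations, control spots at weight 0), and spots of a probe averaged (R 4.3.3, limma 3.58.1). Probes were named by unversioned accession through a RefSeq table of GRCm38.p6 (26581 of 39429 had a symbol). limma's lmFit and eBayes were fitted to all 15 arrays over 28488 probes, two-sided, with Benjamini-Hochberg adjustment, and the procedure was tested on simulated data. "At least N-fold" sets the mean log2 red signal of the group where a probe was well above background against, per array of the other, the higher of the lowest signal among probes well above background and the probe's own.

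The genes, lists and tests were chosen with earlier results of these data known. Genes named are the 10 feedback and target genes, for the rest of the pathway up to 4 called genes per direction and comparison with the largest change, Lgr5, Ascl2, Myc, Ccnd1, Lrp6, Ctnnb1 and Apc in any case, and the 3 genes most correlated with a called gene. Tcf7l2, Cd44 and the markers were named after their values were seen. Alternatives covered background correction, normalization, channel, filter, probes per gene, slide, replicate block and each array left out; an offset of 0 and leaving out 4 arrays of one slide were added after seeing the data.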

Additional observations from a re-analysis of the deposited data

Results flagged for a closer look

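Among 39 groups of 5 arrays (13 probes in 3 groups), 3 held an array that stood apart from the other 4 by Dixon's test, and chance alone gives about 1 in 20. Rnf43 was 2.68 on N1N2 array 1, below the other N1N2 arrays at 3.03 to 3.16. Nkd1 probe 2 was -0.12 on N1N2 + Lrp6 array 4, below the others at 0.041 to 0.095, on a probe that was not well above background on 4 of the 5 arrays. Wif1 was 0.28 on control array 1, above the others at 0.073 to 0.13, on a probe with both channels near background.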

How the results depend on the processing

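For the 10 tested probes of the feedback and target genes, 724 values were recomputed under alternatives: 674 kept their direction or moved by less than the spread within groups, 34 moved by more without a call, 9 lost a call, 6 gained one and 1 reversed. For 16 of the other pathway genes named, all but Tcf7l2 and Cd44, 1168 values were recomputed. Of these, 1029 kept their direction or moved by less than the spread within groups, with no call lost or gained. Another 20 moved by more without a call, 93 lost a call, 24 gained one and 2 reversed. The reversal of a feedback gene was Axin2 probe 2 in N1N2 + Lrp6 against N1N2 crypts with red signal alone (-0.36); of the other pathway genes Fzd1 turned to 0.033 in N1N2 against control crypts with arrays scaled to each other, and Pygo2 to 0.0080 in N1N2 + Lrp6 against N1N2 with median centring. The number of feedback and target probes called in N1N2 against control crypts was 0 with median centring, scaling, red signal alone or slide as a fixed block, 2 with flagged spots in the normexp fit or slide as a random block (Rnf43 added), and 1 to 2 leaving out single arrays. In N1N2 + Lrp6 against N1N2 crypts it was 0 with scaling, 2 with red signal alone or a random slide block, and 0 to 2 leaving out single arrays. With red signal alone the added probe was Axin2 probe 2, which the filter had admitted by that same signal in the other groups. In N1N2 + Lrp6 against control crypts the random block called 1, Notum (adjusted p = 0.0351); its within-slide correlation was -0.18, and a negative value narrows the errors.

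Over all probes, N1N2 against control crypts gave 1457 calls with median centring (45.6% of them higher, against 54.3%), 790 with scaling (68.2% higher), 2151 with the scanner's log ratio, 2773 with flagged spots in the fit (67.6% higher), 117 with slide as a fixed block, and 1747 to 3256 leaving out single arrays. N1N2 + Lrp6 against N1N2 crypts gave 2709 with flagged spots in the fit, 4033 with median centring (77.2% higher, against 58.5%), 615 with scaling, 8327 with slide as a random block, 269 without the 4 arrays of one slide, and 2937 to 5624 leaving out single arrays. N1N2 + Lrp6 against control crypts gave 54 (83.3% higher, against 54.9%), 34, 1 and 181 (38.1% higher) with flagged spots in the fit, median centring, scaling and the scanner's log ratio, 3270 with the random block, 2 without the 4 arrays, and 27 to 422 leaving out single arrays. With the scanner's log ratio the median change of the 10 probes was -0.26 in N1N2 + Lrp6 against N1N2 and -0.22 against control. Arrays with the same replicate number correlated at -0.427 to 0.617, over 0.1 in 4 of 15 pairs, all of them among the 5 pairs of N1N2 with control arrays (-0.0076 to 0.617), and 4 of 15 arrays correlated best with their own number, so, as not every pair passed 0.1 in any comparison, the numbers were not taken to pair the samples; with a replicate block the 3 comparisons gave 2823, 4370 and 32 calls and the same calls among the 10 probes, Notum, Nkd1 probe 1 and none. Under the block Tnfrsf19 in N1N2 against control (adjusted p = 0.0736), Myc in N1N2 + Lrp6 against N1N2 (adjusted p = 0.0507) and Lgr5 in N1N2 + Lrp6 against control (adjusted p = 0.0976) were no longer called, and Pygo2 in N1N2 against control was (adjusted p = 0.0385).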
